A study of Homo sapiens with 4 samples.

Results

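The 10 genes described here are known for exons that are switched during the epithelial-mesenchymal transition (EMT), and were followed at the level of total transcript: CD44, FGFR1, FGFR2, ENAH, ARHGEF11, STX2, EXOC7, NUMB, SLC37A2 and MAP3K7. They were taken by symbol from a table of 36525 human genes, in which all 10 were found. The rule that picked them used no value of the table, but the genes were chosen with earlier results of these data known. The cells were LM2, a clonal lung metastatic line derived from MDA-MB-231, a mesenchymal breast cancer line. The control group and the hnRNPM knockdown group had 2 libraries each, from cells taken 48 h after they were plated. The silencing agent is given as an shRNA in one label and as an siRNA in another, and what the control cells received in its place is not stated. Both groups were grown in the same medium, with serum. Whether replicate libraries stem from separate cultures is not stated, so p-values reflect the spread among these samples alone, and that spread may be technical.

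In EMT, epithelial cells lose their junctions and polarity and gain motility, and part of this change is made by alternative splicing rather than by transcription. Proteins that bind RNA near an exon decide whether it is kept or skipped: the epithelial regulators ESRP1 and ESRP2 favour the epithelial forms, and hnRNPM, which binds GU-rich RNA, favours several mesenchymal forms, among them the standard form of CD44 that lacks the variable exons. Splicing changes which protein a gene makes, and a gene can switch forms with or without a change in its total transcript. The deposited values count reads per gene, so they show the total level and not the use of an exon.

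The exons that give these genes their place on the list are shown for 4 of them, because they set what a value per gene can and cannot see. They were read from GENCODE 29 transcripts (build GRCh38) and are written 5′ to 3′ on the transcript strand, in lower case. Capitals mark each TGTG or GTGT, the DNA letters of a short GU repeat, searched on the transcript strand only, where the pair can overlap each other (TGTGT holds both). CD44 v8, v9 and v10 are the variable exons of the epithelial form of the hyaluronan receptor and lie at chr11:35208105-35208206, chr11:35209965-35210054 and chr11:35211246-35211449 on the plus strand. The cassette exons of ENAH (chr1:225504991-225505053), NUMB (chr14:73279281-73279424) and MAP3K7 (chr6:90544552-90544632) lie on the minus strand, and all 6 exons are coding.
CD44 v8: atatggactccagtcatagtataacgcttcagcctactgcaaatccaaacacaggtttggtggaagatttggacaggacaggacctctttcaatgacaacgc
CD44 v9: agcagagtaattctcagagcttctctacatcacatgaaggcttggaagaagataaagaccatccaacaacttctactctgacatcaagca
CD44 v10: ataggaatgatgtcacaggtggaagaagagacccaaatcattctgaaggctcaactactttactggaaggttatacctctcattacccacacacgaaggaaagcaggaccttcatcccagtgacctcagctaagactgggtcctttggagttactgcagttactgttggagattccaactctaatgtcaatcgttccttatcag
ENAH cassette exon: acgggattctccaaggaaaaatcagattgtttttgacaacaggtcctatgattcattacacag
NUMB cassette exon: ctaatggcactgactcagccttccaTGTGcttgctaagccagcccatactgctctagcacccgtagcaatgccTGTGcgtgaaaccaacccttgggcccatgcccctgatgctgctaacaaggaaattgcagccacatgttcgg
MAP3K7 cassette exon: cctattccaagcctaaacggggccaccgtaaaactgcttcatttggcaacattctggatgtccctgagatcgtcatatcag

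The NUMB exon held 2 of the GU repeats, and the other exons printed held 0. Among annotated coding exons within 10% of the same length, 61.7% of 27936 held at least 1 for NUMB, 72.0% of 14327 for CD44 v10 and 31.4% of 9874 for ENAH. A match is a match of letters and not a binding site. The switched exons are small beside the whole gene. The 9 variable exons of CD44 span 1143 bases, which is 11.43% of its 10004 annotated exon bases. The single exons span 63 bases (0.42%) in ENAH, 81 bases (1.12%) in MAP3K7 and 144 bases (1.51%) in NUMB. A CD44 transcript with all 9 variable exons has 5732 bases against 4589 for the standard form, 1.25 times as many. RPKM divides by 1 length per gene, and how far the mix of forms enters the CD44 value was not tested.

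The values are RPKM, reads divided by a transcript length and a read total. The steps among low values fitted 1 read total for both libraries of a group, so a difference in depth between replicates stays in the deposited values. Between 25668 and 27081 genes per library were above 0, and reads estimated from the steps among low values summed to 16.5 to 26.6 M per library. Over genes, the median ratio of replicate 2 to replicate 1 was 1.16 among controls and 1.11 among knockdowns. Differences were therefore tested on the deposited values and again after median-ratio scaling, which sets these medians equal and lowered the median standard error of a log2 fold change from 0.18 to 0.05. The targeted gene HNRNPM read 88.6 and 102 RPKM in controls against 11.5 and 13.0 RPKM after knockdown. In bulk libraries fewer cells of a type and less RNA per cell cannot be told apart. Of the markers of other cell types, VIM (vimentin, of mesenchymal cells) was at 562 to 760 RPKM in the 4 libraries, and CDH1 (E-cadherin, of epithelial cells) stayed below 1 RPKM in each, with about 20 and 16 estimated reads in controls against 131 and 181 after knockdown. CDH2, the cadherin of mesenchymal cells, likewise had 13 and 12 estimated reads in controls against 136 and 152 after knockdown. Of 8 mesenchymal markers 7 were above 1 RPKM in every library, of 9 epithelial markers 5, and of 6 leukocyte markers 2 (CD68 and CD14). None of the 3 endothelial markers measured reached 1 RPKM in every library. Of the 6 epithelial markers tested with limma, 3 rose, 1 fell and 2 did not pass (adjusted p below 0.05), where 36.4% of all tested genes passed. All 9 epithelial markers summed to 57.1 and 66.0 RPKM in controls and 114 and 128 RPKM after knockdown. Most of that sum was KRT7, whose mean was 42.0 RPKM in controls and 93.1 RPKM after knockdown, while CLDN7 fell 1.70-fold (limma adjusted p = 0.00171, kept only without control replicate 1 among fits that left out a library, and up to 0.125 in the others) and KRT19 had means of 3.81 and 3.77 RPKM. The mesenchymal markers summed to 997 and 1160 against 1032 and 1151 RPKM, and VIM made up most of each sum. Within this list SPARC increased from 75.2 ± 7.19 to 192 ± 12.9 RPKM (limma adjusted p = 5.72e-14). SNAI2 decreased from 12.3 ± 1.57 to 6.49 ± 0.721 RPKM (limma adjusted p = 7.81e-06). The remaining 5 mesenchymal genes in the test stayed short of the threshold on deposited values. With median-ratio scaling all 7 were past it, 4 upward and 3 downward, where 61% of all tested genes passed. The leukocyte markers summed to 27.3 and 30.5 against 13.0 and 15.9 RPKM, and CD68 fell 3.35-fold while CD14 rose 4.56-fold. These marker genes were named after their values were seen. The part of these in the results below was not tested.

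After knockdown, STX2, SLC37A2 and FGFR1 fell and ENAH rose, while CD44, ARHGEF11, EXOC7, NUMB and MAP3K7 did not pass the test on the deposited values. FGFR2 was read at about 1 read in 1 library of each group and at 0 in the others, and was not tested. Of the 9 genes tested, 1 was thus higher and 3 lower (limma, Benjamini-Hochberg adjusted p below the 0.05 threshold), where 14.7% of all 13627 tested genes were higher, 21.8% lower and 36.4% either. The median log2 fold change of the 9 was −0.19, against −0.07 for all tested genes. After median-ratio scaling 2 were higher and 5 lower, where 30.8% of all genes were higher, 30.2% lower and 61.0% either. Read against these shares, 4 of 9 in the first test and 7 of 9 in the second is no result about the 10 genes as a group. Without the filter on low values limma passed 0 of the 9 (smallest adjusted p = 0.0527, STX2), where 1 higher and 3 lower had an unadjusted p below 0.05. The share of all genes past that cut without the filter is not given here. With the filter, 6030 of all 13627 tested genes had an unadjusted p below 0.05 (limma), so the unadjusted count is no result about these genes.

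**Figure D1:**
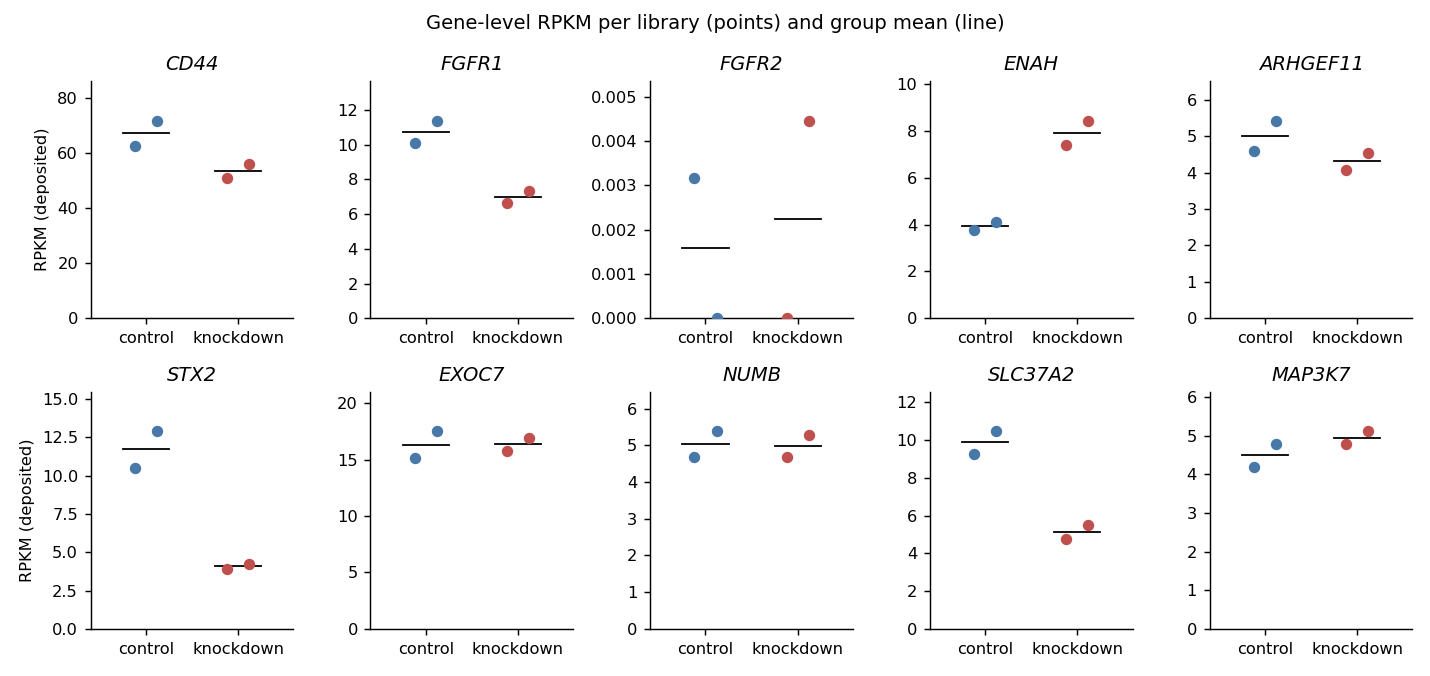
Deposited RPKM (vertical axis, from 0, a separate scale for each gene) of the 10 genes in the control and knockdown libraries. Points are libraries, replicate 1 left and replicate 2 right, and lines are group means. The groups stand apart for CD44, FGFR1, ENAH, ARHGEF11, STX2 and SLC37A2 and overlap for FGFR2, EXOC7, NUMB and MAP3K7.

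The genes differed widely in level. Per kilobase of transcript, CD44 stood first and EXOC7 second in each of the 4 libraries, and FGFR2 last. In the control libraries STX2 (11.7 ± 1.68 RPKM; SD, n = 2, as for all means below), FGFR1 (10.7 ± 0.925) and SLC37A2 (9.86 ± 0.839) followed, in the same order in both control libraries. Between libraries the deposited ranges of neighbours overlapped, whereas the scaled ranges did not (10.99 to 11.7 for STX2, 10.3 to 10.5 for FGFR1 and 9.49 to 9.69 for SLC37A2). NUMB, ARHGEF11 and MAP3K7 lay between 4.18 and 5.43 RPKM, where neighbours overlapped as deposited, and ENAH was the ninth. In the knockdown libraries ENAH was the third in both and STX2 the ninth in both. CD44 was at the 97.3 percentile of all tested genes by mean level, EXOC7 at 83.3, and the other 7 tested genes between 47.7 and 68.2.

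Among the receptors, CD44 is the main cell surface receptor for hyaluronan, a large sugar polymer of the matrix, and links it to the actin cortex. It read 62.7 and 71.9 RPKM in controls against 51.1 and 56.1 RPKM after knockdown. Both knockdown libraries were below both control libraries. The group means were 67.3 ± 6.47 and 53.6 ± 3.56 RPKM, 1.26-fold lower after knockdown, and the log2 change of −0.32 ± 0.17 (SE) did not pass (limma adjusted p = 0.129; 95% confidence interval −0.66 to 0.01). Scaled by the median ratio, CD44 stood at 65.5 and 65.2 in controls against 55.3 and 54.7 after knockdown. On that scale it was 1.19-fold lower, and the log2 change of −0.25 ± 0.01 passed (limma adjusted p = 0.00107) and passed when any 1 library was left out (adjusted p from 0.00866 to 0.0154).

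CD44-AS1, annotated on the opposite strand, shares 84 bases with CD44 exons and was listed with 51.2 and 58.2 RPKM in controls against 43.0 and 52.4 RPKM after knockdown. The use of strand in counting is not stated, so reads of the pair cannot be told apart, though the shared bases are 0.84% of the CD44 exon bases. By the Euclidean distance of log2 values over the 4 libraries, genes near to CD44 included the SR splicing factor SRSF1 (distance 0.08) and MTCH1 (0.10). SRSF1 was at 65.0 ± 6.37 and 52.5 ± 4.10 RPKM.

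FGFR1 and FGFR2 are receptor tyrosine kinases for fibroblast growth factors, and both can carry either of a pair of mutually exclusive exons (IIIb or IIIc) that set which ligands bind. FGFR1 read 10.1 and 11.4 RPKM in controls against 6.61 and 7.33 RPKM after knockdown. Its groups did not overlap. It fell 1.54-fold, from 10.7 ± 0.925 to 6.97 ± 0.510 RPKM, with a log2 fold change of −0.59 ± 0.18 (limma adjusted p = 0.00358). Without a library this call was kept only where control replicate 1 was left out (adjusted p = 0.0452), and was lost in the fit that left out control replicate 2 (0.108), knockdown replicate 1 (0.267) or knockdown replicate 2 (0.122). After scaling it passed in all 4 such fits (adjusted p from 0.00855 to 0.0144), with a change of −0.51 ± 0.03. FGFR1 shares 156 exon bases (1.13%) with an unnamed antisense gene, ENSG00000255201, and 138 (1.0%) with LETM2, both on the opposite strand. ENSG00000255201 was listed with 15.7 and 15.3 RPKM in controls against 10.5 and 12.1 RPKM after knockdown (limma adjusted p = 0.0343). LETM2 was at 1.51 to 2.18 RPKM. Whether FGFR1 shares reads with either was not tested.

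FGFR2 had about 1 estimated read in control replicate 1 (0.00316 RPKM) and in knockdown replicate 2 (0.00446 RPKM), and is listed at 0 in the other libraries. No fold is given, since neither group held more than about 1 read. The LM2 libraries thus had no usable level of the gene whose IIIb and IIIc exons are the textbook example of an EMT switch. Of the other FGF receptors, named here after their values were seen, FGFR3 was at 0.217 ± 0.0140 and 0.513 ± 0.0247 RPKM and FGFR4 at 0.294 ± 0.0425 and 0.121 ± 0.0323 RPKM. FGFR1 was the only one of the 4 kinase receptors above 1 RPKM in any library.

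ENAH and ARHGEF11 act on the actin cytoskeleton. ENAH (Mena) is an Ena/VASP protein that keeps actin filaments growing at their ends, and inclusion of its exon 11a, printed above, marks epithelial cells. It read 3.77 and 4.13 RPKM in controls against 7.43 and 8.46 RPKM after knockdown. Both knockdown libraries were far above both control libraries. It rose 2.01-fold, from 3.95 ± 0.251 to 7.94 ± 0.725 RPKM, with a log2 fold change of 0.92 ± 0.18 (limma adjusted p = 1.66e-06, and 0.000599 after scaling). ENAH was the only one of the 9 that passed upward in the first test, and passed in each fit without 1 library (adjusted p from 0.0048 to 0.0247). The genes nearest to it over the 4 libraries were the microfibril gene FBN1 (distance 0.07), WWC1 (0.09) and the histone demethylase gene KDM5B (0.10). FBN1 went from 4.06 ± 0.390 to 8.10 ± 0.671 RPKM.

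ARHGEF11, a guanine nucleotide exchange factor that activates RHOA downstream of G proteins, read 4.59 and 5.43 RPKM in controls against 4.08 and 4.54 RPKM after knockdown. The groups lay close, with the higher knockdown library just under the lower control library. The log2 fold change of −0.19 ± 0.18 did not pass (limma adjusted p = 0.41; interval −0.54 to 0.15). After scaling it was −0.12 ± 0.04 and just passed (adjusted p = 0.0496), and did not pass in any of the 4 scaled fits that left out a library (adjusted p from 0.126 to 0.214).

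STX2, EXOC7 and NUMB act in membrane traffic and polarity. STX2 is a syntaxin, a membrane-anchored SNARE protein that drives vesicle fusion at the cell surface, also known as epimorphin. It read 10.5 and 12.9 RPKM in controls against 3.93 and 4.25 RPKM after knockdown. Its fall was the largest of the 9 tested genes: 2.86-fold, from 11.7 ± 1.68 to 4.09 ± 0.224 RPKM, with a log2 fold change of −1.41 ± 0.18 (limma adjusted p = 4.74e-14, and 0.000437 after scaling). Only 1.46% of all tested genes had a lower log2 fold change. It was the only one of the 9 to pass against a minimum fold of 1.5, and passed without any 1 library (adjusted p from 3.06e-05 to 0.00753). Over the 4 libraries the nearest genes were ARPIN, which codes for an inhibitor of the Arp2/3 complex (distance 0.07), the tubulin cofactor gene TBCD (0.15) and RPP25 (0.17). ARPIN went from 11.5 ± 1.31 to 4.03 ± 0.344 RPKM. STX2 shares 129 exon bases with ENSG00000256250, an opposite-strand gene without a symbol, which was at 0.460 to 1.99 RPKM.

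EXOC7 codes for Exo70, the exocyst subunit that binds the plasma membrane and tethers secretory vesicles there. It read 15.2 and 17.5 RPKM in controls against 15.7 and 16.9 RPKM after knockdown, and the groups overlapped. The means were 16.3 ± 1.66 and 16.3 ± 0.832 RPKM, and the log2 fold change was 0.00 ± 0.18 (limma adjusted p = 0.992; interval −0.34 to 0.35). After scaling it was 0.08 ± 0.03 (adjusted p = 0.069; interval 0.00 to 0.15), and the sign was negative when control replicate 1 or knockdown replicate 2 was left out of the unscaled fit. ZACN, on the opposite strand, shares 2650 bases with it, 26.27% of its annotated exon bases. ZACN was listed with 23.0 and 26.5 RPKM in controls against 23.9 and 26.0 RPKM after knockdown, and whether the pair share reads was not tested.

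NUMB is an endocytic adaptor that holds back Notch signalling, and its printed exon lengthens a proline-rich region. It read 4.69 and 5.38 RPKM in controls against 4.68 and 5.27 RPKM after knockdown, which overlapped. The log2 fold change was −0.01 ± 0.18 (limma adjusted p = 0.958; interval −0.36 to 0.33) and 0.06 ± 0.03 after scaling (adjusted p = 0.227; interval −0.04 to 0.15), so its sign depends on the scaling. The scaled interval leaves room for a rise of up to 0.15 and a fall of up to 0.04 on the log2 scale.

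SLC37A2 is a sugar-phosphate exchanger of the endoplasmic reticulum. It read 9.27 and 10.5 RPKM in controls against 4.77 and 5.50 RPKM after knockdown, with no overlap. It fell 1.92-fold, from 9.86 ± 0.839 to 5.13 ± 0.513 RPKM, with a log2 fold change of −0.88 ± 0.18 (limma adjusted p = 5.26e-06, and 0.000644 after scaling). Without knockdown replicate 1 it just missed the threshold (adjusted p = 0.0509), and after scaling it passed without any 1 library (adjusted p from 0.00593 to 0.0118).

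MAP3K7 codes for TAK1, a kinase that passes signals from TGF-β, interleukin-1 and Toll-like receptors to NF-κB and to the stress kinases. It read 4.18 and 4.79 RPKM in controls against 4.78 and 5.11 RPKM after knockdown. The lower knockdown library lay just below the higher control library. The log2 fold change of 0.13 ± 0.18 did not pass (limma adjusted p = 0.603; interval −0.22 to 0.47). After scaling it was 0.20 ± 0.04 and passed (adjusted p = 0.0169), with a fold of 1.15, but among scaled fits without 1 library it passed only without knockdown replicate 2 (adjusted p from 0.0402 to 0.0921).

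**Figure D2:**
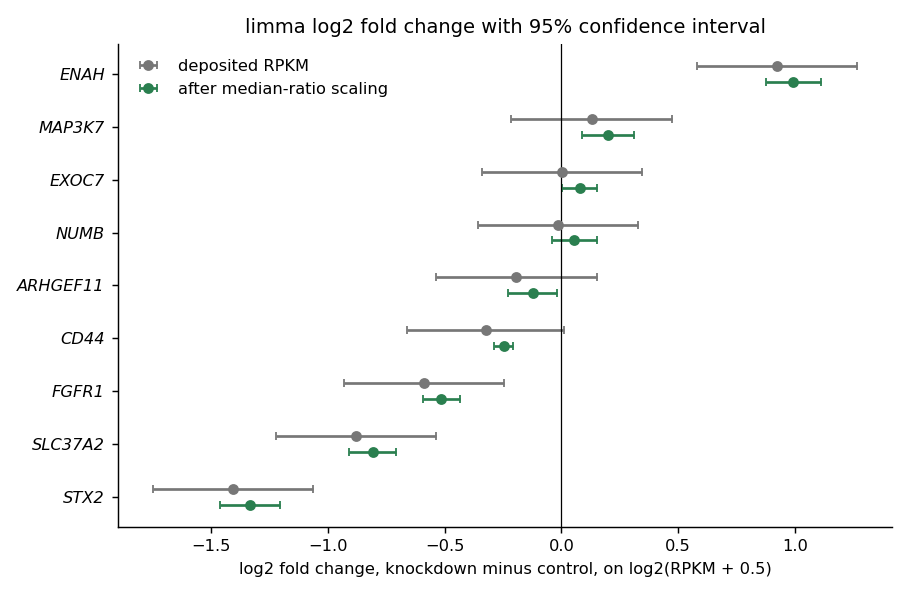
Log2 fold change from control to knockdown (horizontal axis) of the 9 tested genes, from limma on deposited RPKM (grey) and after median-ratio scaling (green). Bars are 95% confidence intervals. The intervals of STX2, SLC37A2, FGFR1 and ENAH exclude 0 in both, and those of CD44, ARHGEF11, EXOC7 and MAP3K7 exclude it after scaling only.

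The shift between replicates was also seen in the 9 genes themselves. The ratio of replicate 2 to replicate 1 ran from 1.09 (ENAH) to 1.23 (STX2) in the control libraries and from 1.07 (MAP3K7) to 1.15 (SLC37A2) in the knockdown libraries, all above 1. On deposited values 6 of the 9 genes had groups that did not overlap (1 higher, 5 lower), where 66.8% of all tested genes did (28% higher, 38.8% lower). On scaled values all 9 did (4 higher, 5 lower), where 82.5% of all tested genes did (41.1% higher, 41.3% lower). A gap between groups was thus common among all genes. STX2, ENAH, SLC37A2 and FGFR1 differed 1.43-fold or more on the scaled values, and the others 1.19-fold or less.

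**Figure D3:**
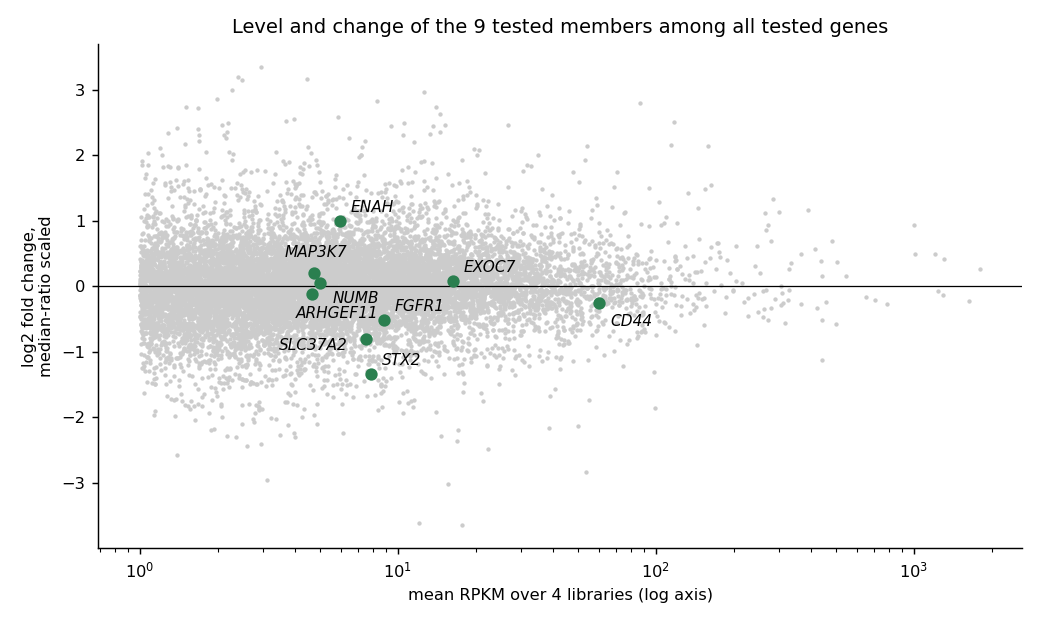
Mean RPKM over the 4 libraries (horizontal, log axis) and log2 fold change after median-ratio scaling (vertical) of all 13627 tested genes (grey) and of the 9 tested genes (green, named). STX2 lies at −1.33 and ENAH at 0.99, and CD44, the most abundant of the 9, at −0.25.

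Beside these genes, 35 others with exons switched in EMT were listed, and 33 could be tested. Of these, 5 rose, 6 fell and 22 missed the threshold (median log2 change −0.00), and after scaling 16 rose and 10 fell. Of all tested genes 14.7% were higher and 21.8% lower as deposited, and 30.8% and 30.2% after scaling. These shares stand beside the counts of each list below, and no list was tested against them. CSF1, a macrophage growth factor whose exon choice decides between secreted and membrane forms, rose from 12.5 ± 1.21 to 27.5 ± 1.75 RPKM (limma adjusted p = 3.73e-09). MLPH, a melanosome transport adaptor, fell from 7.44 ± 0.586 to 3.20 ± 0.0317 RPKM (limma adjusted p = 7.03e-09). The wider list thus held genes that went both ways, as the 9 did.

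Of 25 tested regulators of such exons, 2 rose, 4 fell (1 of them HNRNPM itself) and 19 missed the threshold (median log2 change −0.24), and after scaling 6 rose and 14 fell. MBNL2, a muscleblind protein, rose from 4.63 ± 0.652 to 16.2 ± 0.414 RPKM (limma adjusted p = 2.03e-20). ESRP2 read 2.59 and 2.94 RPKM in controls against 1.08 and 1.34 RPKM after knockdown and fell 2.28-fold (limma adjusted p = 7.17e-06). ESRP1, below the filter, was seen with about 3 and 10 estimated reads in controls and is listed at 0 in the knockdowns.

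Around CD44, 15 of 22 genes of hyaluronan synthesis, breakdown and binding and of CD44 partners and sheddases were tested. Of these 5 rose, 2 fell and 8 missed the threshold (median log2 change 0.23), and after scaling 8 rose and 4 fell. HAS2, a hyaluronan synthase, read 12.8 and 13.6 RPKM in controls against 4.02 and 4.10 RPKM after knockdown, and fell 3.26-fold (limma adjusted p = 9.13e-18). MMP14, a membrane protease that can shed CD44, fell from 64.2 ± 5.50 to 13.1 ± 0.502 RPKM, whereas ADAM10, another sheddase of CD44, named after its values were seen, rose from 10.9 ± 1.18 to 16.4 ± 1.24 RPKM (limma adjusted p = 0.00451, and 0.0576 to 0.294 when 1 library was left out). LAYN, which codes for the hyaluronan receptor layilin, rose from 10.2 ± 1.26 to 33.2 ± 2.06 RPKM. EZR, named after its values were seen, codes for ezrin, which ties the tail of CD44 to actin, and rose from 67.1 ± 6.37 to 121 ± 11.1 RPKM (limma adjusted p = 7.44e-06; 0.0917 without knockdown replicate 2). The paralogs of EZR, also named after their values were seen, did not pass. RDX was at 4.50 ± 0.411 and 6.00 ± 0.458 RPKM, and MSN at 59.8 ± 4.82 and 53.7 ± 3.52 RPKM (limma adjusted p = 0.0763 and 0.52). After scaling RDX passed upward and MSN downward (limma adjusted p = 0.00161 and 0.0425). Beside these, the means of CD44 itself differed 1.26-fold.

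Around the FGF receptors, 14 of 21 ligands, adaptors and feedback genes were tested, and 2 rose, 4 fell and 8 did not pass (median −0.28; 3 rose and 7 fell after scaling). ETV5, a transcription factor induced by FGF and ERK signalling, fell from 16.3 ± 1.59 to 7.29 ± 0.916 RPKM (limma adjusted p = 5.25e-09), and the ERK phosphatase gene DUSP6 from 25.6 ± 2.69 to 11.9 ± 1.00 RPKM (limma adjusted p = 1.98e-08). FGFRL1, a receptor without a kinase domain that was named after its values were seen, rose from 6.99 ± 0.543 to 10.5 ± 1.03 RPKM, opposite to FGFR1 (limma adjusted p = 0.00651, and 0.0693 to 0.329 when 1 library was left out).

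Of 9 tested Ena/VASP partners and relatives, 1 rose, 3 fell and 5 did not pass, and after scaling 4 rose and 4 fell. PFN1, the actin monomer carrier profilin, fell from 528 ± 59.1 to 350 ± 24.3 RPKM (limma adjusted p = 0.00137) and LPP, a focal adhesion protein gene, from 3.61 ± 0.319 to 2.34 ± 0.0719 RPKM (adjusted p = 0.0115). Each of these calls was lost in 3 of 4 fits without 1 library and kept without control replicate 1. The paralogs of ENAH were named after their values were seen. VASP stood at 36.6 ± 5.18 and 28.2 ± 1.55 RPKM and passed downward only after scaling (limma adjusted p = 0.0849, and 0.00621 after scaling). EVL, which was below the filter, stood at 0.818 ± 0.142 and 0.382 ± 0.0856 RPKM. Neither had a higher mean after knockdown, whereas ENAH rose.

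Of 7 tested genes of the RhoGEF pathway of ARHGEF11, 1 rose, 1 fell and 5 did not pass, and after scaling 3 rose and 4 fell. Its paralog ARHGEF1 fell from 16.3 ± 1.36 to 8.64 ± 0.955 RPKM (limma adjusted p = 5.4e-06; 0.0691 without knockdown replicate 1). GNA13, the G protein subunit that activates such factors, rose from 14.8 ± 1.90 to 20.7 ± 1.60 RPKM (limma adjusted p = 0.0227, and 0.0829 to 0.446 when 1 library was left out).

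Of 20 tested syntaxins and SNARE partners, 6 rose, 2 fell and 12 missed the threshold (median log2 change 0.14), and after scaling 11 rose and 3 fell. STX3, an apical syntaxin of epithelial cells, read 7.10 and 7.95 RPKM in controls against 30.3 and 33.8 RPKM after knockdown. It rose 4.26-fold (limma adjusted p = 2.21e-28), whereas its paralog STX2 fell 2.86-fold. In the control libraries STX2 was above STX3, and in the knockdown libraries STX3 was above STX2. STX12, an endosomal syntaxin, fell 2.20-fold from 4.16 ± 0.255 RPKM (limma adjusted p = 9.83e-07).

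Among 10 exocyst and RAL genes, 1 rose, 2 fell and 7 did not pass, and after scaling 6 rose and 3 fell. RALA, a GTPase that binds the exocyst, rose from 5.58 ± 0.488 to 7.74 ± 0.631 RPKM (limma adjusted p = 0.0362), and EXOC4 fell from 3.19 ± 0.478 to 2.20 ± 0.199 RPKM (adjusted p = 0.0415). Both calls were lost in each of the 4 unscaled fits without 1 library (adjusted p from 0.0585 to 0.459). EXOC7 was the most abundant exocyst subunit in each library.

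Of 11 tested NUMB partners and Notch genes, 4 rose, 3 fell and 4 did not pass, and after scaling 6 rose and 3 fell. NOTCH1 fell from 3.99 ± 0.364 to 1.66 ± 0.123 RPKM (limma adjusted p = 1.05e-07) and AP2A2, a subunit of the clathrin adaptor that NUMB binds, 2.72-fold (limma adjusted p = 4.79e-09). Its paralog AP2A1, named after its values were seen, went the other way. It rose from 29.4 ± 2.39 to 39.4 ± 3.14 RPKM and just passed on deposited values (limma adjusted p = 0.0462, and 0.000644 after scaling). Fits of AP2A1 without 1 library are not given here. NOTCH2, named after its values were seen, rose 1.94-fold, from 16.8 ± 1.5 to 32.6 ± 2.23 RPKM (limma adjusted p = 9.45e-07), and NUMBL, the NUMB paralog, was at 4.03 ± 0.519 and 4.08 ± 0.340 RPKM.

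Around MAP3K7, 10 genes of the TAK1 pathway were tested, of which 3 rose, 2 fell and 5 did not pass, and after scaling 5 rose and 3 fell. MAP2K3, a kinase that activates p38, rose from 19.6 ± 1.88 to 52.8 ± 2.56 RPKM (limma adjusted p = 2.62e-14), and MAP2K4, which activates JNK and p38, from 2.21 ± 0.0312 to 4.07 ± 0.334 RPKM (adjusted p = 0.000195; 0.0594 without knockdown replicate 2). Of the relatives of SLC37A2, SLC37A4, the glucose-6-phosphate transporter, fell 2.41-fold (limma adjusted p = 1.74e-09) and SLC37A3 rose 1.80-fold (adjusted p = 0.000285; 0.0611 without knockdown replicate 2).

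**Figure D4:**
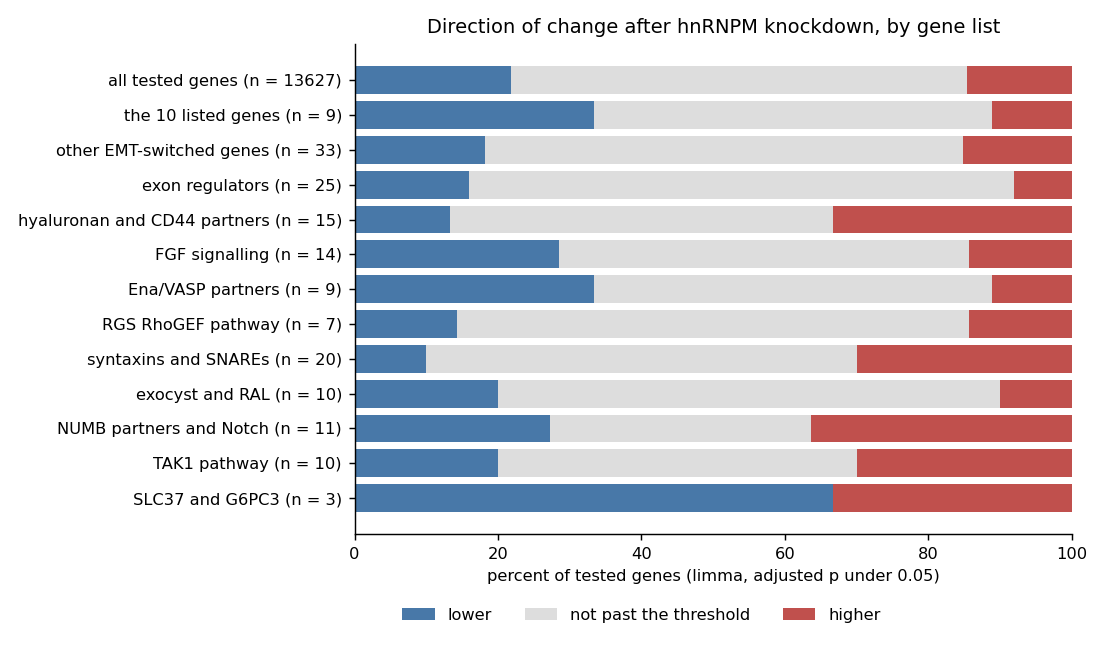
Percent of tested genes (horizontal axis) that were lower, not past the threshold or higher after knockdown in limma on deposited RPKM, for all tested genes, the 10 listed genes (9 tested) and the lists around them, with the number tested. Of all tested genes 21.8% were lower and 14.7% higher, and the shorter lists hold from 3 to 33 tested genes.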

How the data were processed

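RNA of LM2 cells was sequenced in 2 control and 2 knockdown libraries. The authors deposited RPKM values for 36525 Ensembl genes; per the submitters' processing notes, Bowtie 0.12.7 and the build hg19 were used, and the counting program, gene lengths, strand use and read total: not given in the sources used here. All sample columns were used (0 left over). Symbols came from a current table and GENCODE 29, which named 32308 IDs; the table held 0 genes of chromosomes 20, 21 and 22, which were not analysed here. Low values step by what 1 read is worth; with GENCODE 29 exon lengths these steps gave read totals of 41.9 M (control) and 29.7 M (knockdown), shared by both libraries of a group, and 82.8% of 37228 low values then lay within 0.1 of a whole read. Estimated reads describe depth only; the tested members had 434 to 30118 per library.

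Genes that averaged at least 1 RPKM were tested as log2(RPKM + 0.5) with limma 3.58.1 (R 4.3.3; model of group only, variance trend fitted, two-sided, Benjamini-Hochberg adjustment over 13627 genes, threshold 0.05). The scale understates the change of low genes; folds are ratios of mean RPKM unless called scaled. An exact permutation test of 2 against 2 libraries cannot reach the threshold and was not run. The script was tested on simulated data. The members and lists were chosen with earlier results of these data known. The rule for named genes took the 10 members, HNRNPM, CDH1, VIM, ESRP1, ESRP2, HAS2, up to 2 genes per list with the smallest p, and the 3 genes nearest to CD44, ENAH and STX2; some results are not reported here. Alternatives covered pseudocount, filter, scaling, variance trend, minimum fold, replicate block and each library left out.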

Additional observations from a re-analysis of the deposited data

How the results depend on the processing

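Each of 18 other settings (13 planned, 5 chosen after seeing the data) was run. Over all genes, 2000 were higher and 2964 lower on deposited values, where higher calls made up 40.3% of calls. They were 262 and 255 without a filter (genes at 0 in every library left out), 1047 and 1321 with a minimum mean of 5 RPKM, 4192 and 4122 with median-ratio scaling (50.4% higher; 4424 of 4964 calls shared in the same direction), 3696 and 4638 with equal RPKM sums, 360 and 479 with a minimum fold of 1.5, and 759 to 1158 higher and 1057 to 2007 lower with 1 library left out. Median-ratio scaling together with leaving out 1 library gave 3143, 3147, 3582 and 3593 higher and 2788 to 3685 lower. The cause was not tested. Among the 9 tested members, 1 higher and 3 lower became 0 and 0 without a filter. The smallest limma adjusted p of a member was then 0.0527 (STX2). The counts became 2 and 5 with median-ratio scaling and with equal sums, and 0 and 1 with a minimum fold of 1.5. With that minimum fold, 1 higher and 2 lower had an unadjusted p under 0.05 (limma). The share of all genes past that cut is not given here. Leaving out 1 library gave 1 higher and 1 to 3 lower, and 1 to 2 higher and 4 lower together with scaling; a lone library was then assumed to vary like the others.

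The groups share replicate numbers, and deviations of same-numbered libraries from their group means correlated at 0.03 over genes. That correlation leaves out a shift common to all genes, and only 2 pairs exist, so it cannot show whether the libraries are paired. Over genes, the median ratio of replicate 2 to replicate 1 was 1.16 in controls and 1.11 in knockdowns. A block on the replicate number takes up such a shift where both groups have it. With the replicate number as a block, 3109 genes were higher and 4318 lower, and 1 member was higher and 4 lower, CD44 then passing (limma adjusted p = 0.0094). With the block and median-ratio scaling together, 3856 were higher and 3738 lower, and 2 members were higher and 4 lower.

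Of 160 values of members under these settings, 135 kept their side of the threshold, 14 gained a call and 11 lost one. Signs differed from the main value only for NUMB (9 of 18 settings) and EXOC7 (2 of 18), neither of which passed in any setting. FGFR2 had at most 1 estimated read per library, so no change in it was detectable at this depth.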
